A study of Homo sapiens with 6 samples.

Results

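The nuclear-encoded subunits of the respiratory chain and of ATP synthase were followed in Caki-1, an established human clear cell renal carcinoma line, with and without the tumor suppressor VHL. Genes were taken by symbol (NDUFA, NDUFB, NDUFC, NDUFS and NDUFV, UQCR, CYC1, COX4 to COX8 and ATP5 families), which gave 90 of the 60708 genes in the count table. Of these, 83 are subunit genes, 1 is the ATP synthase inhibitor gene ATP5IF1, and 6 are antisense, divergent or read-through transcripts. Another 160 genes named as pseudogenes of the same families were left out.

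Total RNA was sequenced from 2 groups of 3 samples. VC stands for vector control, in a line that the paper describes as wild type for VHL. Which vector the VC cells of these samples carried is not spelled out. VHL-KO cells received a lentivirus encoding Cas9 and guide RNA against VHL, for which the paper lists 2 guide sequences. Infected cells were selected with puromycin, and knockout clones were screened by immunoblot, but the number of clones behind the libraries is not given. The VC libraries held 31789923, 28463579 and 34881739 counts and the VHL-KO libraries 29139722, 22805385 and 22628246. Nothing in the labels says that the replicates were separate cultures, so p-values measure only the spread between these samples, which may be technical.

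VHL, the substrate receptor of the ubiquitin ligase that marks hypoxia-inducible factor (HIF) for destruction, was still transcribed in the knockout. Its level was 42.6, 37.8 and 40.1 CPM (reads of a gene relative to all reads of its library, after TMM normalization) in VC and 34.8, 30.4 and 30.5 CPM in VHL-KO. The groups did not overlap, and the log2 fold change was -0.33 (SE 0.11, edgeR adjusted p = 0.0109), but with offsets for GC content and length it was -0.05 (adjusted p = 0.597). The call was also lost with upper quartile factors (adjusted p = 0.0905) and without VC replicate 1 (0.0862) or VHL-KO replicate 2 (0.0621). A small edit need not change the number of reads on a gene. The HIF target NDRG1 stood at 12.1, 11.1 and 11.7 CPM in VC and at 728.6, 774.1 and 781.2 CPM in VHL-KO. CA9, a carbonic anhydrase induced by HIF, had 0, 0 and 2 reads in VC and 288, 247 and 233 in VHL-KO. Of the 6 HIF targets outside mitochondria that were listed, 5 rose and 1, the oxygen sensor EGLN3, fell (-1.26, edgeR adjusted p = 0.00337). Over all 17401 tested genes, 28.5% were higher and 31.2% lower in VHL-KO.

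The respiratory chain passes electrons from NADH and succinate to oxygen through complexes I to IV of the inner mitochondrial membrane, and ATP synthase (complex V) uses the proton gradient they build. Most subunits are encoded in the nucleus, and a small set, at the core of complexes I, III, IV and V, in mitochondrial DNA. Clear cell renal carcinoma is known for loss of VHL and for low use of respiration. HIF is known to induce NDUFA4L2, a relative of the complex IV subunit NDUFA4, and COX4I2, an alternative form of the complex IV subunit COX4I1.

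More members rose than fell. Among 17401 genes tested, 59.7% passed the threshold, 28.5% higher and 31.2% lower in VHL-KO. Of the members, 82 were tested, and 41 of them (50%) rose while 10 (12.2%) fell. The median log2 fold change of the 76 tested subunit genes was 0.33, against -0.01 over all tested genes. Compared with the VC mean, the subunit median was 0.38, 0.36 and 0.17 in VHL-KO replicates 1, 2 and 3. Scaling by library size alone moved the median of all genes to -0.20 and that of the subunits to 0.14, and upper quartile factors moved them to 0.10 and 0.44.

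The gap between the subunit median and that of all genes did not hold with offsets for base composition and transcript length. The offsets were fitted to each library, so they also remove any difference between the groups that follows GC content or length. A technical trend and an effect of the knockout cannot be told apart in this way. With offsets that remove each library's trend with GC content and length, the subunit median was 0.03 and that of all genes 0.00, and 33 members were higher and 21 lower. The share of called members that were higher was 80.4% without the offsets, 61.1% with them and 70.6% with library size alone, against 47.7%, 48.5% and 35.8% over all called genes. Of the 41 members called higher, 27 were still called higher with the offsets and 6 were called lower. Of the 10 called lower, 6 were still called lower and 0 were called higher. In bulk RNA, fewer cells of a type and less RNA per cell cannot be told apart.

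**Figure D1:**
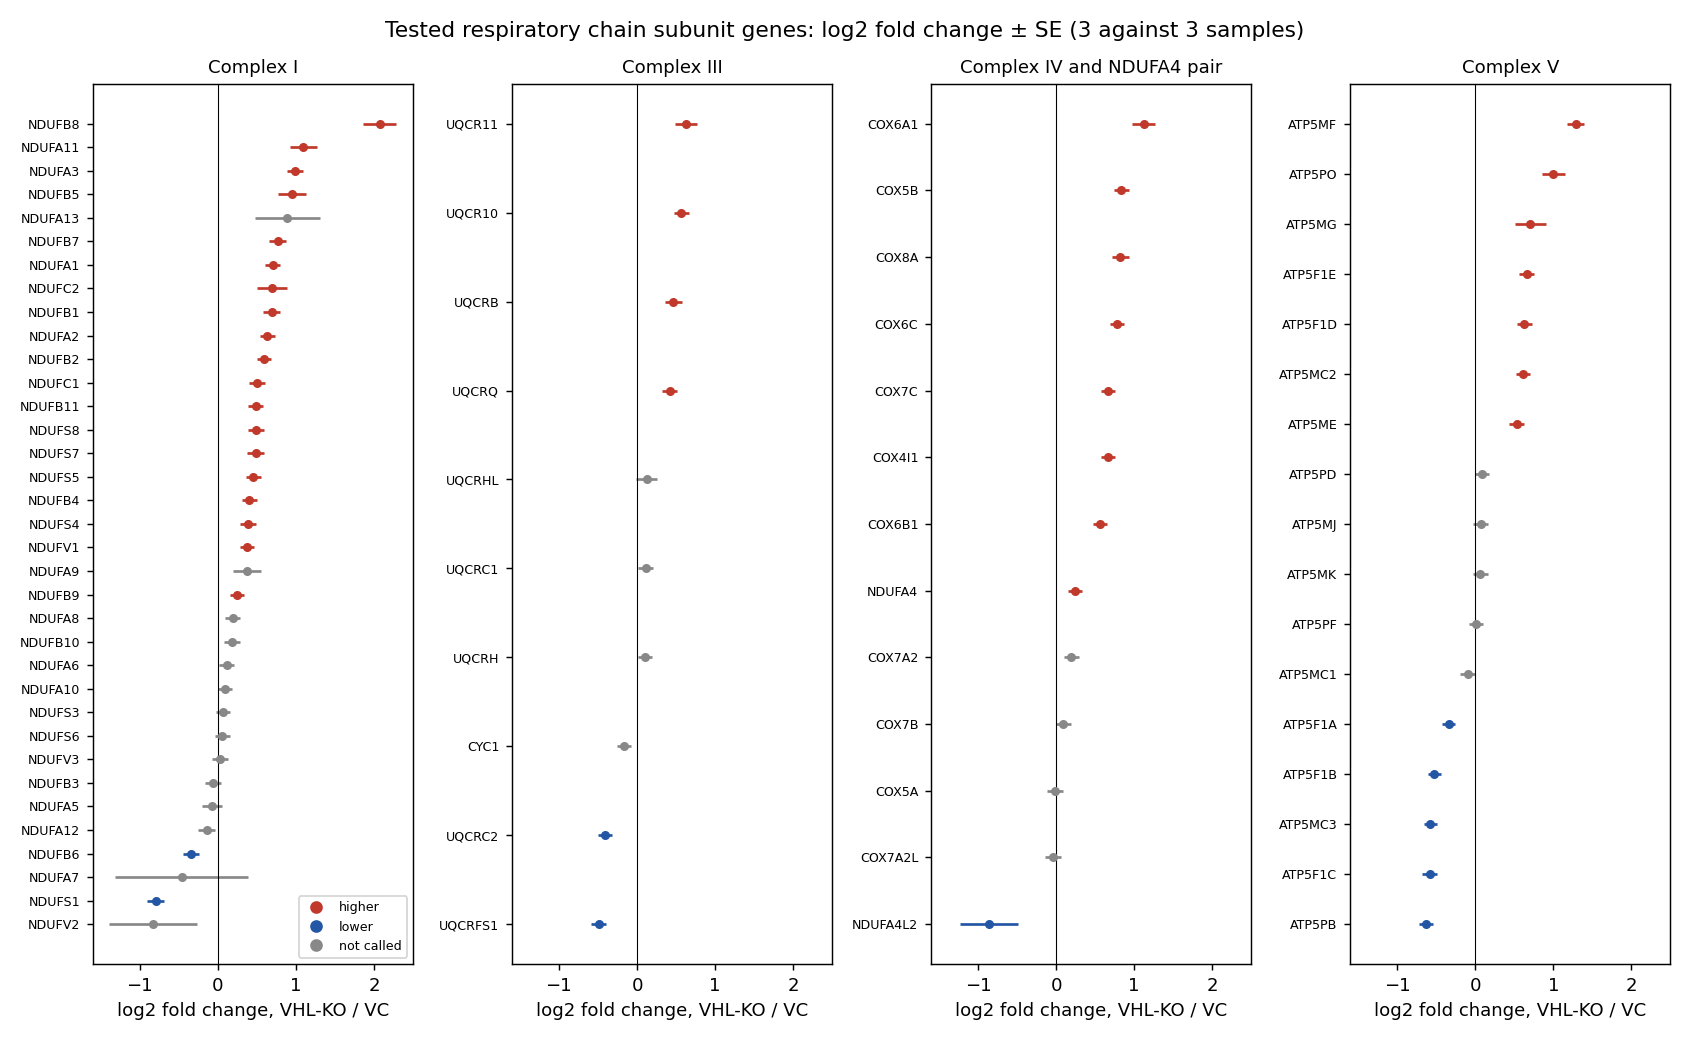
Log2 fold change of tested subunit genes, VHL-KO over VC, by complex (points, with SE as bars; red higher, blue lower, grey not called; no GC or length offsets). No gene of the COX families is called lower here (COX7A2L is with library size alone), NDUFA4L2, drawn beside them, is, and complex V holds 7 genes called higher and 5 called lower.

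The isoform genes tied to HIF did not rise. NDUFA4L2 (ENSG00000185633.10, chromosome 12, 57234903 to 57240715, minus strand) had 65, 55 and 35 reads in VC and 31, 10 and 19 in VHL-KO. These correspond to 1.90, 1.85 and 0.922 CPM in VC and 1.16, 0.464 and 0.891 CPM in VHL-KO, and the groups overlapped. The log2 fold change was -0.86 (SE 0.37, edgeR adjusted p = 0.0473), a call that stood under 8 of 15 alternatives, with adjusted p between 0.000884 and 0.188. Leaving out VC replicate 1 or 2, or VHL-KO replicate 2 or 3, each ended it. The fall is therefore uncertain, and a rise was not seen under any alternative run, since the log2 fold change ranged from -1.56 to -0.58. Of its exonic bases, 3.50% lie opposite exons of SHMT2, and without known strandedness those reads cannot be told apart. The same limit is larger for other named genes, among them NDUFS7 (51.3%), ATP5F1E (32.7%) and VHL (26.6%).

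NDUFA4 (ENSG00000189043.10, chromosome 7, 10931943 to 10940153, minus strand) stood at 198.8, 189.3 and 202.0 CPM in VC and 250.6, 229.0 and 217.6 CPM in VHL-KO. The groups did not overlap, and the log2 fold change was 0.24 (SE 0.09, edgeR adjusted p = 0.0218). This call was lost under 5 of 15 alternatives, among them library size alone (0.05, adjusted p = 0.637), while the offsets raised the value to 0.59 (adjusted p = 1.02e-07). Per kb of transcript, NDUFA4L2 reads came to 2.07%, 2.11% and 0.985% of NDUFA4 in VC and to 1.00%, 0.437% and 0.884% in VHL-KO. The log2 ratio of NDUFA4L2 to NDUFA4 averaged -7.02 ± 0.62 in VC and -8.13 ± 0.60 in VHL-KO (SD, n = 3 each), a difference of -1.10 (two-sided exact permutation p = 0.2, where 0.1 is the smallest possible).

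COX4I2 had 0 reads in all 6 samples, so no fold change or ratio could be computed. The floor of 3 counts corresponds to between 0.0790 and 0.141 CPM, and per kb to at most 0.0308% of COX4I1 in any sample. COX4I1 (ENSG00000131143.10, chromosome 16, 85798633 to 85807068, plus strand) stood at 348.4, 383.0 and 331.8 CPM in VC and at 600.8, 560.8 and 520.7 CPM in VHL-KO. All 3 VHL-KO samples lay above all VC samples. The log2 fold change was 0.66 (SE 0.09, edgeR adjusted p = 7.1e-07), and it passed under all 15 alternatives, between 0.27 and 0.77.

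**Figure D2:**
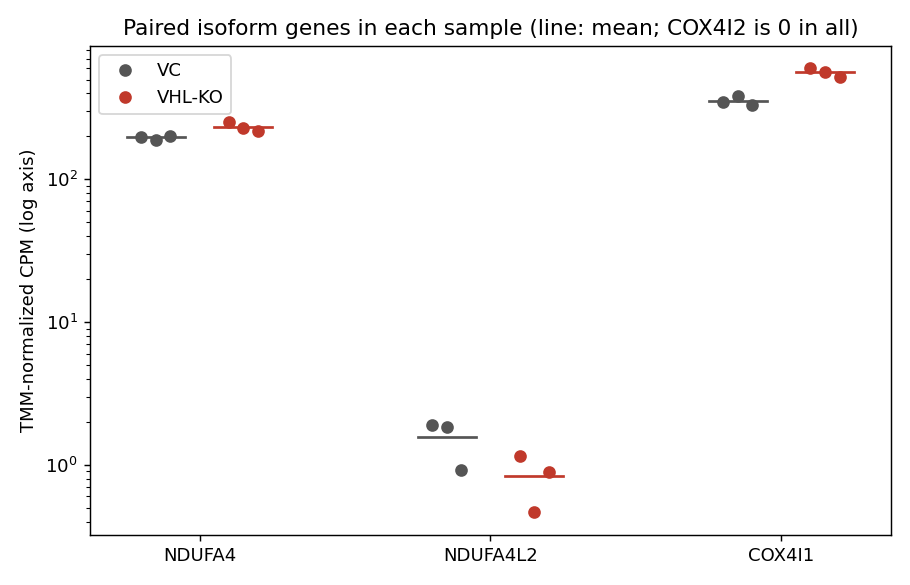
Level of NDUFA4, NDUFA4L2 and COX4I1 in each sample (points, TMM-normalized CPM on a log axis; lines are group means; VC grey, VHL-KO red). NDUFA4L2 lies near 1 CPM in both groups and its groups overlap; COX4I2, at 0 in every sample, cannot be drawn on a log axis.

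Complex I, the NADH dehydrogenase, had all 36 of its genes tested, with 20 (55.6%) higher, 2 (5.56%) lower and a median log2 fold change of 0.38, against 28.5% higher and 31.2% lower over all tested genes. With the offsets 15 were higher and 10 lower, and the median was 0.07. Its core genes, which carry the flavin and iron-sulfur clusters or bind beside them, were split. NDUFS1, the largest core subunit, stood at 75.7, 64.5 and 84.5 CPM in VC and 44.6, 41.2 and 43.4 CPM in VHL-KO. Its groups did not overlap, and its log2 fold change was -0.80 (SE 0.11, edgeR adjusted p = 5.87e-07), called in all 15 alternatives but reduced to -0.41 with the offsets. NDUFS7, NDUFS8 and NDUFV1 were called higher, at 0.48, 0.48 and 0.38. With the GC and length offsets they reversed to -0.36, -0.29 and -0.12, so their direction rests on that choice, and NDUFV1 also lost its call with library size alone (adjusted p = 0.0543). NDUFS3 (0.06) and NDUFV2 (-0.83, SE 0.56) did not pass. NDUFS3 was called lower with the offsets (-0.33, adjusted p = 5.02e-05), and NDUFV2 with pseudogene counts added (-0.69, adjusted p = 0.019) and without VHL-KO replicate 3 (-1.55, adjusted p = 0.045).

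The accessory subunits surround the core. Among them, NDUFA3 stood at 43.5, 41.9 and 37.7 CPM in VC and 87.0, 81.8 and 74.6 CPM in VHL-KO. Its log2 fold change was 0.98 (SE 0.10, edgeR adjusted p = 9.28e-09) and 0.51 with the offsets. The other large rises were NDUFB8 (2.07), NDUFA11 (1.09) and NDUFB5 (0.95), all of them low in counts and sharing exons with other genes. With the offsets NDUFB8 stood at 1.57 and NDUFB5 at 1.48, and NDUFA11 lost its call (0.30, adjusted p = 0.0759). NDUFS5, the most abundant per kb, rose by 0.45 without the offsets and stood at 0.11 with them (adjusted p = 0.104). NDUFB6 fell by 0.34, a call lost with the offsets, with upper quartile factors and without VHL-KO replicate 3. NDUFS6 (0.06) and NDUFB10 (0.18) did not pass, but with the offsets both were called lower, at -0.63 and -0.49. NDUFB10 was called higher under 3 of 15 alternatives, so its direction is uncertain.

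Complex III, the cytochrome bc1 complex, had 10 genes tested, with 4 (40%) higher and 2 (20%) lower, against 28.5% and 31.2% over all tested genes, and with the offsets 4 higher and 5 lower. UQCRFS1, the Rieske iron-sulfur protein, stood at 74.3, 75.5 and 74.4 CPM in VC and 54.0, 56.7 and 48.7 CPM in VHL-KO. Its log2 fold change was -0.49 (SE 0.10, edgeR adjusted p = 0.000111) but -0.14 with the offsets (adjusted p = 0.105). UQCRC2, a core protein of the complex, fell by 0.41 (-0.20 with the offsets), while its partner UQCRC1 stood at 0.11 and did not pass. UQCRC1 was called lower with the offsets (-0.30, adjusted p = 3.55e-05) and higher without VC replicate 2 (0.22, adjusted p = 0.0156), so its direction is uncertain. Of the smaller subunits, UQCR11, UQCR10, UQCRB and UQCRQ rose, by 0.63, 0.56, 0.46 and 0.42. All 4 passed under all 15 alternatives, with UQCRB at 0.97 and UQCR11 at 0.38 with the offsets. The offset value of UQCRB rests on a canonical transcript of 8459 nt, and UQCR11 shares 18.1% of its exonic bases with another gene. UQCRH (0.10) and UQCRHL (0.12) did not pass. With the offsets both were called lower, UQCRH at -0.14 (adjusted p = 0.0239) and UQCRHL at -0.32 (adjusted p = 0.0125). CYC1, which carries heme c1, stood at -0.17 (adjusted p = 0.102) but was called lower with the offsets (-0.78, adjusted p = 1.53e-10) and with library size alone (-0.36, adjusted p = 0.0005).

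Of the 17 COX genes of complex IV, cytochrome c oxidase, 11 were tested, 7 (63.6%) rose and 0 fell, against 28.5% and 31.2% over all tested genes. NDUFA4, which was called higher, and NDUFA4L2, which was called lower, are not among the 17 or in the summed level of the complex. The count of falls was 0 at an unadjusted edgeR p under 0.05, 0 with DESeq2 and 0 with the offsets, but with library size alone COX7A2L was called lower (-0.23, adjusted p = 0.0474). With the offsets COX7A2L was instead called higher (0.37, adjusted p = 1.86e-05), as was COX7B (0.46, adjusted p = 6.29e-07). COX5B (ENSG00000135940.7) stood at 140.0, 151.5 and 133.2 CPM in VC and 267.9, 267.3 and 222.4 CPM in VHL-KO. The groups did not overlap, with a log2 fold change of 0.83 (SE 0.10, edgeR adjusted p = 4.88e-08) and 0.46 with the offsets. COX6A1 (1.12, and 0.65 with the offsets), COX8A (0.82), COX6C (0.78), COX7C (0.67) and COX6B1 (0.56) also rose, though COX8A and COX6B1 lost their calls with the offsets. COX5A, COX7A2, COX7A2L and COX7B did not pass. COX7A2 (0.20, adjusted p = 0.0679) was called higher under 5 of 15 alternatives: RLE factors, upper quartile factors, at least 10 reads in every sample, DESeq2 and without VC replicate 2. With the offsets it stood at -0.11 (adjusted p = 0.11). The summed level of the 17 genes was 1375, 1421 and 1322 CPM in VC and 2156, 2068 and 1874 CPM in VHL-KO.

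The isoforms of complex IV that are known from muscle and testis were silent or nearly so. COX6A2, COX7A1 and COX7B2 had 0 reads in all samples, COX6B2 had 1 read in VHL-KO replicate 2, and COX8C had 6 reads in VHL-KO replicate 3. None of these was tested.

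Of 17 tested complex V genes, 7 (41.2%) rose and 5 (29.4%) fell, against 28.5% and 31.2% over all tested genes, and with the offsets 4 were higher and 5 lower. The summed level was 3165, 3196 and 3089 CPM in VC and 3319, 3103 and 3030 CPM in VHL-KO. In the catalytic F1 head, ATP5F1B, the beta subunit, stood at 726.1, 754.8 and 733.6 CPM in VC and 522.0, 500.6 and 517.9 CPM in VHL-KO. Its log2 fold change was -0.52 (SE 0.08, edgeR adjusted p = 6.12e-06), called in all 15 alternatives. The alpha and gamma subunits ATP5F1A and ATP5F1C fell by 0.34 and 0.58, the first of these losing its call with the offsets. The delta and epsilon subunits ATP5F1D and ATP5F1E rose by 0.63 and 0.66, but with the offsets ATP5F1D stood at -0.20 and ATP5F1E at 1.18. The last value rests on a canonical transcript of 3610 nt. ATP5PB, of the peripheral stalk, fell by 0.63 (-0.19 with the offsets), and ATP5MF, ATP5PO and ATP5MG rose by 1.29, 1.00 and 0.71, with ATP5MF at 0.83 with the offsets. ATP5PD, a stalk subunit, did not pass. Per kb it was second to ATP5F1B in VC (417.0 against 419.7 CPM per kb) and lower than ATP5MC2 in VHL-KO (444.9 against 502.6).

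Subunit c, which forms the rotor ring, is encoded by 3 genes whose mature proteins are the same. ATP5MC3 stood at 218.0, 238.3 and 220.3 CPM in VC and 155.3, 148.7 and 151.0 CPM in VHL-KO, and ATP5MC2 at 208.5, 222.6 and 190.8 CPM in VC and 327.9, 308.8 and 316.3 CPM in VHL-KO. The groups did not overlap for either gene, and they moved in opposite directions. The log2 fold changes were -0.57 (edgeR adjusted p = 3.9e-06) and 0.62 (adjusted p = 1.73e-06), and both calls were lost with the offsets, at -0.13 and 0.10. ATP5MC1 did not pass, at -0.09, but was called lower with the offsets (-0.62, adjusted p = 5.01e-08) and with library size alone (-0.29, adjusted p = 0.00731). ATP5MC2 made up 38.3%, 38.8% and 36.9% of subunit c reads in VC and 54.8%, 55.5% and 55.6% in VHL-KO. The summed level was 544.0, 573.2 and 517.4 CPM in VC and 598.4, 555.8 and 568.4 CPM in VHL-KO, and those ranges overlapped. ATP5IF1, which inhibits ATP hydrolysis by the enzyme, rose from 86.3, 88.5 and 75.2 CPM to 135.1, 127.6 and 114.3 CPM (log2 fold change 0.59, edgeR adjusted p = 1.16e-05), and stood at 0.17 with the offsets (adjusted p = 0.0122).

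**Figure D3:**
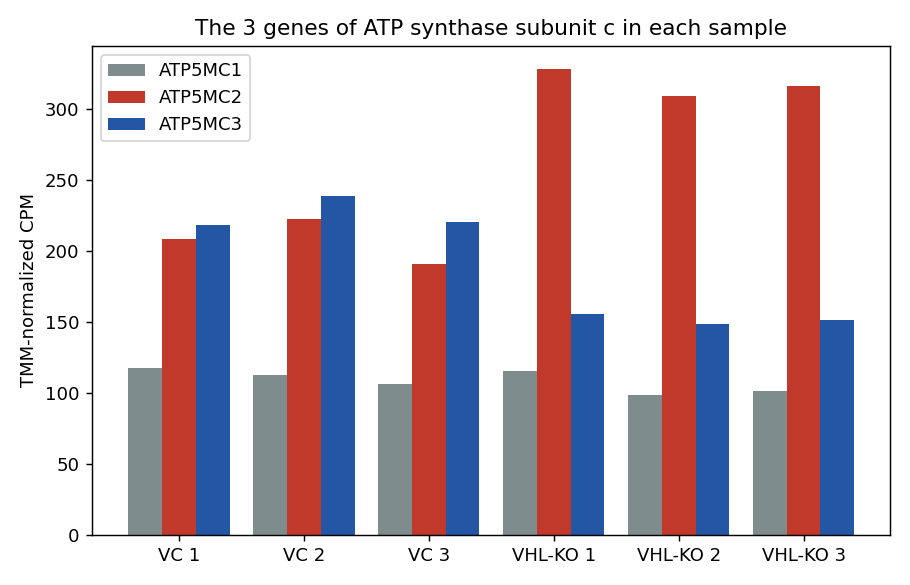
TMM-normalized CPM of ATP5MC1, ATP5MC2 and ATP5MC3 in each of the 6 samples (bars, 1 per gene and sample). ATP5MC2 has the most reads of the 3 in every VHL-KO sample and ATP5MC3 in every VC sample, without correction for transcript length.

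The genes that rose and fell differed in transcript length and base composition. Subunit genes called higher had a median canonical transcript of 691 nt and 51.7% GC, and those called lower 2250 nt and 42.6% GC. Across the 76 tested subunits, Spearman's rho of the log2 fold change was -0.348 with length and 0.267 with GC content, a description over genes that share libraries and are not replicates. The same trend ran through the whole table. Among all tested genes, those with a GC content of at most 42.2% had a median log2 fold change of -0.44 and those with at least 56.4% a median of 0.42. Genes with transcripts of at most 1450.5 nt had a median of 0.43, and the 54 subunit genes in that range a median of 0.48. The subunits did not follow the trend in every range. The 14 with the high GC content had a median of 0.48, close to that of all such genes, while the 16 with the low GC content had a median of 0.05, and the 7 with transcripts of at least 4587 nt a median of 0.02, against -0.31 over all genes of that length. How far this trend accounts for the subunits' values was not tested.

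**Figure D4:**
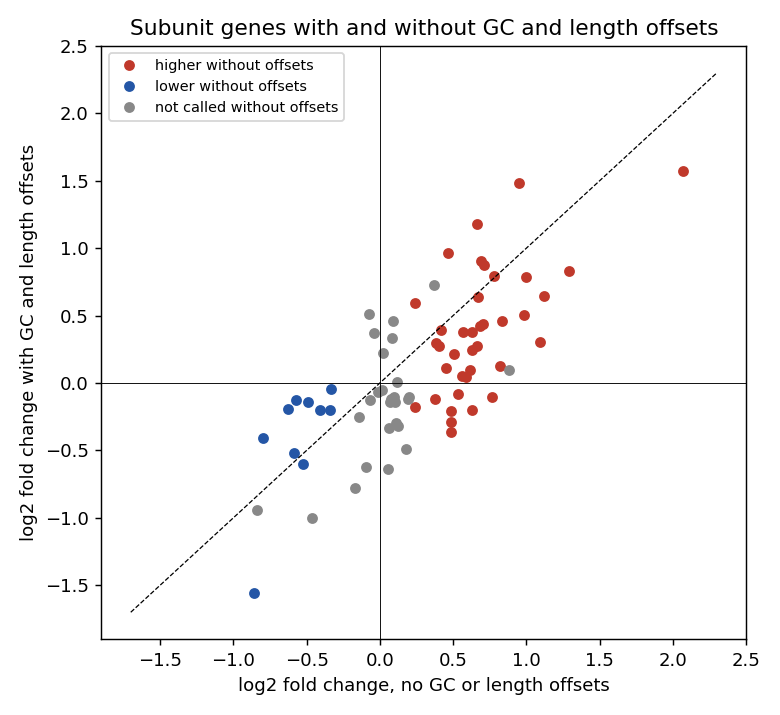
Log2 fold change of tested subunit genes without (horizontal) and with (vertical) offsets for GC content and length, colored by the call without offsets; the dashed line marks equal values. Points called higher that lie under the horizontal zero line changed sign.

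Some of the largest rises lie in genes that share exons with a neighboring or read-through gene on the same strand. Of the tested subunits, 14 share at least 10% of their exonic bases in this way, among them NDUFB8 (72.0%), NDUFA11 (68.2%), ATP5PO (63.8%), ATP5MF (37.2%), COX8A (35.4%) and COX6A1 (32.6%). Their median level in VC was 4.21 CPM per kb, against 99.5 CPM per kb for the other 62. How reads in shared exons were counted is not given, so the values of these genes are uncertain. Of the 14, 10 (71.4%) rose and 0 fell (0 at an unadjusted edgeR p under 0.05, 0 with DESeq2). Over all tested genes, 28.5% were higher and 31.2% lower. NDUFV2, which is among the 14, was called lower with pseudogene counts added and without VHL-KO replicate 3. The other 62 had 29 (46.8%) higher, 10 (16.1%) lower and a median log2 fold change of 0.19. With the offsets those 62 had 22 higher, 21 lower and a median of -0.09. NDUFV2, with 90.0% of its exonic bases shared, also had 77.6% of the reads of its family on pseudogenes.

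Complex II and the soluble electron carrier, outside the symbol families above, were read from lists of their own. SDHB, the iron-sulfur subunit of succinate dehydrogenase, fell by 0.64 and SDHC, a membrane anchor, by 0.28. The SDHC groups overlapped, and its call was lost under 5 of 15 alternatives: upper quartile factors (adjusted p = 0.184) and without VC replicate 1 or 3 or VHL-KO replicate 1 or 2. SDHA, the flavoprotein, rose by 0.99, but it shares 69.4% of its exonic bases with another gene, so its value is uncertain. CYCS, cytochrome c, stood at 163.3, 149.8 and 178.1 CPM in VC and at 58.4, 62.2 and 63.6 CPM in VHL-KO, a log2 fold change of -1.42 (SE 0.10, edgeR adjusted p = 6.72e-12) and of -0.94 with the offsets. Of the 13 subunits encoded in mitochondrial DNA, 10 rose and 2 fell, against 28.5% and 31.2% over all tested genes, with MT-ND3 at 1.49, MT-CO2 at 1.11 and MT-ATP8 at -1.65. MT-ATP8 shares 22.2% of its exonic bases with MT-ATP6, which rose (1.10), and stood at 272.9, 113.0 and 323.0 CPM in VC. MT-ND4L, the other that fell (-0.72), shares 2.36% with MT-ND4, which rose (0.80). How reads in these shared bases were counted is not given, so both falls are uncertain. The summed level of the 13 was 55800, 48100 and 55900 CPM in VC and 97500, 83400 and 86700 CPM in VHL-KO. The groups did not overlap, and the part of this shift in the subunits' values was not tested.

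The assembly lists hold factors that help build the complexes and also NDUFAB1, which is a complex I subunit as well. Of 58 genes tested, 16 (27.6%) rose and 20 (34.5%) fell, close to the 28.5% and 31.2% over all tested genes, with a median log2 fold change of -0.10. For complex IV, 11 of 25 rose, including PET100 (1.74) and COX14 (1.20, and 0.72 with the offsets), which share 43.0% and 13.6% of their exonic bases with other genes, and 7 fell, including COA7 (-1.21), and with the offsets 10 were higher and 7 lower. For complex I, 4 of 19 rose and 7 fell, including NDUFAF6 (-0.91), NDUFAF4 (-0.74) and FOXRED1 (-0.60), and with the offsets 3 were higher and 11 lower, with NDUFAF4 at -0.28. For complex III, 0 of 6 rose (1 at an unadjusted edgeR p under 0.05, 1 with DESeq2) and 3 fell (BCS1L -0.69, TTC19 -0.45 and UQCC1 -0.35). With the offsets 3 were lower too, but BCS1L stood at -1.05 and TTC19 lost its call (-0.07, adjusted p = 0.486), and with upper quartile factors UQCC1 lost its call (adjusted p = 0.0553). For complex V, 1 of 8 rose (ATPAF2, 0.71, and 0.37 with the offsets) and 3 fell, including TMEM70 (-0.68), which shares 16.9% of its exonic bases, and ATPAF1 (-0.31). With the offsets 3 were higher and 3 lower. The call of ATPAF1 was lost under 5 of 15 alternatives: the offsets (0.05, adjusted p = 0.551), upper quartile factors (-0.19, 0.133) and without VC replicate 3 (-0.21, 0.0986) or VHL-KO replicate 1 (-0.30, 0.0625) or 2 (-0.24, 0.118).

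Of 14 nuclear regulators of respiratory genes, 10 were lower and 3 higher, against 31.2% and 28.5% over all tested genes, and with the offsets 10 were lower and 2 higher. TFAM, which packages and transcribes mitochondrial DNA, stood at 30.2, 23.4 and 39.1 CPM in VC and 9.36, 10.2 and 9.90 CPM in VHL-KO (log2 fold change -1.66, edgeR adjusted p = 1.93e-09), and its log2 fold change was -1.06 with the offsets. PPARGC1B, a coactivator, fell by 1.51, while its relative PPARGC1A rose by 1.13, and MXI1, a MYC antagonist, rose by 1.69. In the list of HIF targets tied to mitochondria, which shares MXI1 and LONP1 with the regulators, 6 of 9 rose and 1 fell (5 and 1 with the offsets), with PDK3, a kinase that restrains pyruvate dehydrogenase, at 2.95 and the mitophagy receptor BNIP3L at 1.52. In that list FUNDC1 was called lower (-0.78), and HIGD1A (-0.38) and ISCU (0.16) were not called. LONP1, among those that rose, stood at -0.02 with the offsets. NDUFA4L2, also known as a HIF target, did not rise either.

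Promoter sequences from RefSeq (GRCh38.p14) were matched for 65 of the 83 subunit genes. COX5B, which rose, and UQCRFS1, which fell, are shown as examples of genes that moved in opposite directions, each with the 250 bases before its start. Capitals mark matches, on either strand, to the core of the HIF response element (ACGTG or GCGTG), the full NRF1 motif (GCGCA followed at once by TGCGC), a shorter NRF1 motif (TGCGCA), an ETS motif (CCGGAAG) and a YY1 motif (AAGATGGC).
COX5B (chr2:97645812-97646061, plus strand): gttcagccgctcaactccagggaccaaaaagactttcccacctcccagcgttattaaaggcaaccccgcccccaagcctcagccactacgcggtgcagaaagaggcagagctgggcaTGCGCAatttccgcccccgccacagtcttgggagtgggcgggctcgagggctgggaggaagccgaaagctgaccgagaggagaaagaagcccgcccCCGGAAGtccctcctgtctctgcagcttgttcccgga
UQCRFS1 (chr19:29213152-29213401, minus strand): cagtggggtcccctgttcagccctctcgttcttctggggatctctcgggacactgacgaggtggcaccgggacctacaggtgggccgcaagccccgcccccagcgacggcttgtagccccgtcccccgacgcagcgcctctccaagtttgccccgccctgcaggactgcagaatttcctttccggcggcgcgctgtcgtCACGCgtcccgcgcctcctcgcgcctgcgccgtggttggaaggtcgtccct
The shorter NRF1 motif was found in 14 of the 65 promoters (21.5%) and in 7.05% of all 27305 promoters in the table, and the ETS motif in 15 (23.1%) and 8.82%. The HIF core was found in 37 (56.9%) and 43.1%, the full NRF1 motif in 2 (3.08%) and 1.13%, and the YY1 motif in 1 (1.54%) and 1.37%. By call, the shorter NRF1 motif was in 7 of 29 promoters of genes called higher, 6 of 25 not called and 0 of 7 called lower. The full NRF1 motif was in 1 of 29, 0 of 25 and 1 of 7, and the HIF core in 17 of 29, 15 of 25 and 4 of 7. The ETS motif was in 8 of 29, 6 of 25 and 1 of 7, and the YY1 motif in 0 of 29, 1 of 25 and 0 of 7. A match is a description of letters and not of binding.

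Markers of the line and of other cell types were read in the same libraries. PAX8, KRT8 and KRT18, of renal epithelium, were abundant, with KRT8 at 647.8, 765.7 and 596.7 CPM in VC, while PAX2 and LRP2 were at 0 in every sample. The summed level of the 10 renal markers was 1590, 1790 and 1460 CPM in VC and 2220, 2150 and 2160 CPM in VHL-KO, and its part in the subunits' values was not tested. Of these markers 7 were tested and 5 rose, while EPCAM (-1.42) and CDH2 (-0.45) fell, against 28.5% higher and 31.2% lower over all tested genes. With the offsets 2 were higher and 1 lower, and KRT18 (-0.07) and CDH2 (-0.05) lost their calls. The calls of KRT19 and GGT1, both low in counts, stood under 5 of 15 and 4 of 14 alternatives. The 5 leukocyte markers summed to 1.73, 1.72 and 1.32 CPM in VC and 4.38, 5.42 and 3.99 CPM in VHL-KO, nearly all of it CD14, which rose (1.47, edgeR adjusted p = 7e-06, and 0.92 with the offsets), with CD3E at 0. The 4 endothelial markers summed to 0.234, 0.168 and 0.237 CPM in VC and 0.711, 0.324 and 0.469 CPM in VHL-KO. PECAM1, the most abundant over all samples, had 1, 5 and 0 reads in VC and 14, 7 and 9 in VHL-KO and was called higher (2.73, adjusted p = 0.0117). KDR, more abundant than PECAM1 in VC, went the other way in reads, with 4, 0 and 9 in VC and 0 in each VHL-KO sample, and was not tested. The 4 fibroblast markers summed to 35.1, 36.5 and 29.4 CPM in VC and 27.8, 24.8 and 22.9 CPM in VHL-KO, led by COL1A1, which fell (-0.42, adjusted p = 0.00424, and -0.68 with the offsets), with COL3A1 and LUM at 0. The 4 muscle markers summed to 0.0293, 0.269 and 0.0263 CPM in VC and 0.337, 0.881 and 0.141 CPM in VHL-KO, with MYH7 and CKM at 0. MB, the most abundant of them, was called higher (2.60, adjusted p = 0.0146), though its groups overlapped. The 3 testis markers were at 0 in every sample. CD14, PECAM1, MB and COL1A1 thus moved with the group, and their part in the subunits' values was not tested.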

How the data were processed

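RNA-seq read counts per gene from 3 VC and 3 VHL-KO Caki-1 samples were used as deposited. Per the labels and the study's methods, the authors trimmed reads with Trim Galore and cutadapt, aligned them with STAR to GRCh38.p13, kept uniquely mapped reads with SAMtools and counted them with HTSeq; versions, annotation release, strandedness and counting mode are not given in the sources used here. Every gene with at least 10 reads in any sample was fitted with edgeR 4.0.16 in R 4.3.3 (trimmed mean of M values (TMM) factors, group only, quasi-likelihood F test, two-sided, Benjamini-Hochberg over all tested genes, threshold 0.05). DESeq2 1.42.0 was an alternative. Standard errors were derived from the fold change and its F statistic. Floors for 0 counts used 3 counts and cover counting error only. Transcript length, GC content, positions and exon sharing came from GENCODE v44 on GRCh38. Length and GC content are those of the canonical transcript, and which transcript the cells expressed was not tested, so offset and per kb values depend on that choice. The members and lists were chosen with earlier results of these data known. Named genes were VHL, the isoform pairs, core and tissue-isoform subunits, ATP5IF1, the subunit c genes, up to 4 largest rises and 4 largest falls per complex among subunits averaging at least 1 CPM, the most abundant per kb, and the 3 largest changes in each other list; other names were chosen after their values were seen. The promoter motifs, the promoters printed, the ranges of GC content and length, and the split by shared exons were also chosen after values were seen. A gene left out of the text and figures is not reported here but stays in the counts and medians.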

Additional observations from a re-analysis of the deposited data

How the results depend on the processing

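Leaving out each replicate in turn gave 38 to 47 members called higher, 9 to 10 called lower, a subunit median between 0.27 and 0.36, NDUFA4L2 between -1.18 and -0.58, NDUFA4 between 0.19 and 0.29 and COX4I1 between 0.62 and 0.74. The count of members called lower was 21 with GC and length offsets against 10 without. The subunit median, 0.33 as reported, was 0.14 with library size alone, 0.027 with the offsets, and 0.19 without genes that share exons, an alternative chosen after seeing the data. NDUFA4L2 missed the threshold with RLE factors (-0.84, adjusted p = 0.0506), upper quartile factors (-0.75, adjusted p = 0.0776) and DESeq2 (-0.85, adjusted p = 0.0956), and NDUFA4 with library size alone (0.046, adjusted p = 0.637) and without a filter on low counts (0.20, adjusted p = 0.0697). The difference between the groups in the log2 ratio of NDUFA4L2 to NDUFA4 lay between -1.46 and -0.76 when each replicate was left out. A scaling factor cancels in a ratio within a library, so the choice of factors could not change its direction. With the offsets, 23 of the 82 tested members changed sign. Among the genes that the naming rule took, signs changed for ATP5PD (-0.10), ATPAF1 (0.054), COX7A2 (-0.11), COX7A2L (0.37), NDUFS3 (-0.33), NDUFS7 (-0.36), NDUFS8 (-0.29), NDUFV1 (-0.12), UQCRC1 (-0.30) and UQCRH (-0.14). With library size alone this held for ATP5PD (-0.10), COX7B (-0.10), NDUFS3 (-0.13), UQCRC1 (-0.08) and UQCRH (-0.09), and with upper quartile factors for ATP5MC1 (0.018) and COX7A2L (0.075). Without VC replicate 3, COX7A2L was at 0.038, and without VHL-KO replicate 1 at 0.006, in a range over the 6 such fits from -0.093 to 0.038. The cause was not tested in any of these.

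Deviations of samples of the same replicate number correlated weakly (r = 0.148, -0.0762 and 0.0625), in a range over all VC and VHL-KO pairs from -0.174 to 0.148. With 3 samples in each group, these values cannot show whether samples of the same number were prepared together. With the replicate block, 41 members were higher and 10 lower, the subunit median was 0.32, and NDUFA4L2 was at -0.87. COX4I2 had 0 reads, so no alternative could give it a value or a ratio to COX4I1. Depth limits NDUFA4L2, which had at most 65 reads in a sample.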
